A study of Homo sapiens with 6 samples.

Results

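Solute carriers are membrane proteins that move sugars, ions, metals, vitamins, nucleotides and organic acids across the plasma membrane and the membranes of organelles. The genes described here are those with an SLC or SLCO symbol outside the families best known for amino acid transport (SLC1, SLC3, SLC6, SLC7, SLC36, SLC38 and SLC43). They were measured in C4-2 cells, a castration-resistant human prostate cancer line that descends from LNCaP. Of 14812 genes with a named probeset, 38 had such a symbol, 23 of these were protein-coding, 22 lay outside the families left out, and 17 had a mean log2 intensity above 5 over the 6 arrays and are the members. Each of the 17 was read by 1 probeset. Members were chosen by symbol and by this mean over all arrays, and no other measured value entered that rule. The rule itself was set with earlier results of these data known.

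The 6 Affymetrix Human Gene ST arrays form 3 groups of 2 biological replicates. NU7441 cultures received this DNA-PKcs kinase inhibitor at 1 µM for 24 h. Knockdown cultures were transiently depleted of DNA-PKcs, the catalytic subunit of the DNA-PK complex that joins broken DNA ends, with an siRNA pool against its gene PRKDC for 96 h, and controls were treated with DMSO. All were grown in medium that contained hormones. The protocol also names a control siRNA pool, but the labels do not say that the DMSO cultures received it, so depletion, transfection and time cannot be told apart in the knockdown comparison. PRKDC was not among the named probesets and is not analysed here, so the labels alone define the depletion.

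The members fell into 13 families. Of the families to be compared, SLC2, SLC25 and SLC35 were represented by 1, 1 and 2 genes, and no zinc carrier of SLC30 or SLC39 was among the named probesets, so those families are not analysed here. The other 13 members belong to small families. In all, 9 of the 17 carried an older MFSD name in RefSeq's gene table, which marks the major facilitator superfamily, the large group of carriers that alternately open to either side of a membrane. The label of a solute carrier does not hold for every member. SLC2A4RG takes its symbol from a glucose transporter but encodes a DNA-binding regulator of that transporter's gene, and SLC25A15 carries an amino acid, ornithine, although its family was kept.

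Depth on arrays is set by brightness, and the number of arrays limits the precision. The lowest deposited value was just above 16, and the median probeset lay at 24.6 and 26.0 in NU7441 cells, 28.4 and 27.6 in knockdown cells, and 31.5 and 31.6 in controls, with 95th percentiles between 289 and 299 on all arrays. The median SD of the members' log2 values within a group was 0.20 for NU7441, 0.12 for knockdown and 0.10 for control. Luminal prostate genes were bright on every array: KLK3, which encodes prostate-specific antigen, had intensities of 1213 and 969 in NU7441 cells, 709.5 and 711 in knockdown cells, and 793 and 726 in controls. Summed over the 7 measured genes of 11 on the luminal list, the intensity was 4169 and 4462 in NU7441 cells, 3179 and 3147 in knockdown cells, and 3317 and 3152 in controls. Under NU7441 2 of the 7, KLK3 and KLK4, rose and 0 fell. KLK4 had 938 and 904 in NU7441 cells, against 392 and 331 in controls. KLK2 (268 and 340, against 460 and 364 in controls) and KRT18 (352 and 346, against 360 and 405) lay lower on both NU7441 arrays, with no call. HOXB13 and KRT8 lay higher on both, also with no call. The part of these differences in the carriers' values was not tested. Of the other lists, 3 basal, 5 neuroendocrine, 3 stromal, 3 leukocyte and 3 endothelial genes were measured, of which 3, 4, 2, 2 and 2 had a mean log2 of 5 or less. None of these rose under NU7441, and 2 neuroendocrine, 1 stromal and 2 endothelial genes fell, where 10.8% of all genes rose and 22.4% fell.

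**Figure D1:**
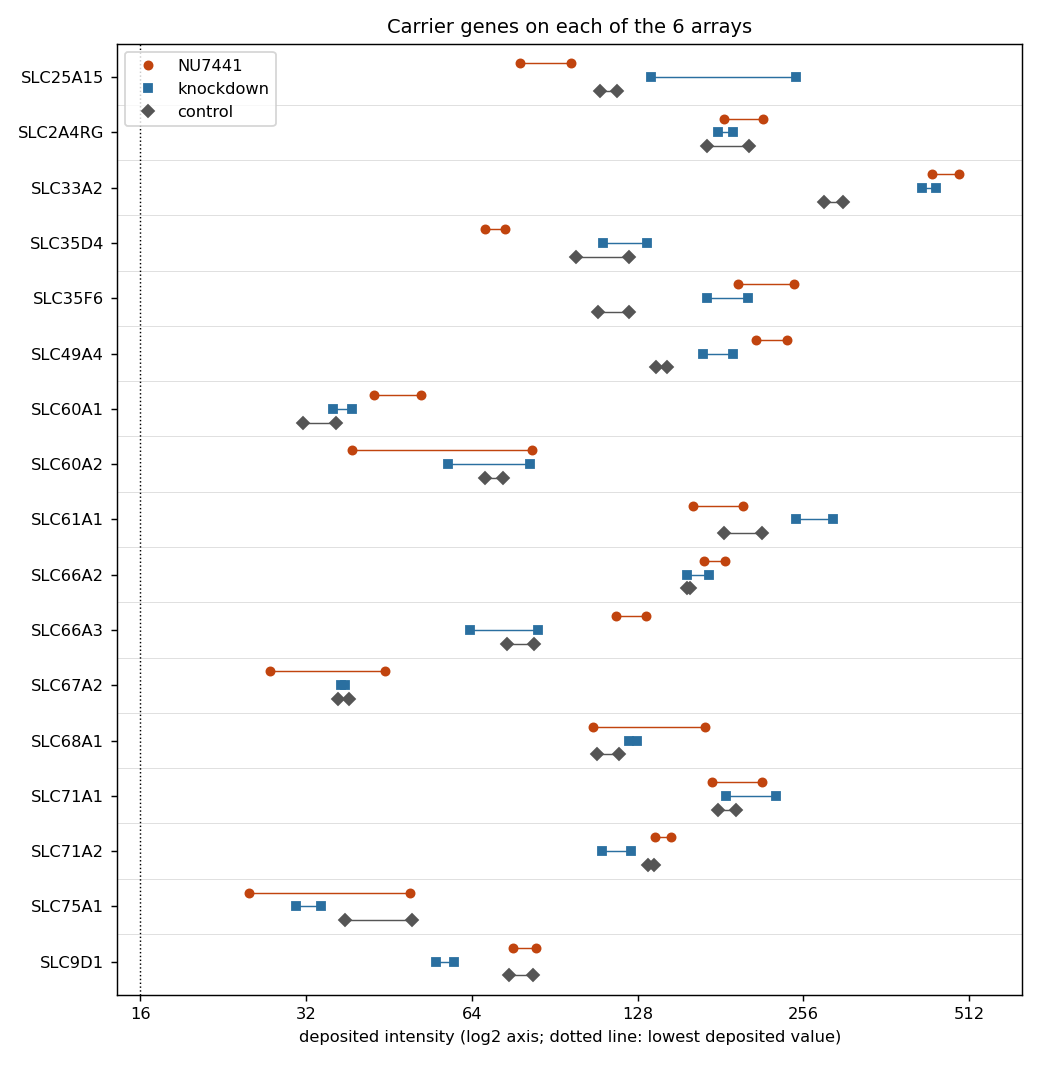
Deposited intensity (log2 axis) of the 17 carrier genes on each array, with NU7441, knockdown and control arrays on separate lines within a gene and a bar joining the 2 arrays of a group. SLC35F6, SLC33A2 and SLC49A4 lie higher on all 4 treated arrays than on both controls, and the NU7441 arrays of SLC60A2 and SLC75A1 lie far apart; levels of different genes are not comparable, since each has its own probes.

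NU7441 against control addressed the response to blocking the kinase. In NU7441-treated cells 4 members rose: SLC35F6, SLC33A2, SLC49A4 and SLC66A3, each by 1.59 to 1.89-fold. A single member, SLC35D4, fell, by 1.57-fold. These 5 of 17 (29.4%) had an adjusted p below 0.05 in limma (Benjamini-Hochberg over all genes), against 33.2% of all genes tested and 43.2% of the 7764 protein-coding genes whose mean log2 was above 5. The members' share was thus no higher than the background. By direction, 23.5% of the members rose, against 10.8% of all genes and 18.8% of the protein-coding genes above the same mean, and 5.88% fell, against 22.4% and 24.4%. The split depends on the scaling: after quantile normalization 14.3% of all genes rose, and after median centring 20.1%. With either scaling 5 members rose and 0 fell, since SLC60A1 passed and SLC35D4 did not. A lower array value cannot tell fewer cells that carry a transcript from less of it per cell.

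SLC35F6 had the largest fold change of the members under NU7441. It belongs to a family of nucleotide-sugar carriers, although its own protein has been described at mitochondria, bound to an adenine nucleotide translocase, and at lysosomal membranes. Its intensity was 195 and 246 in NU7441 cells, against 123 and 108 in controls. Both treated arrays lay above both controls, with a mean of 221 ± 37 in NU7441 cells and 116 ± 10 in controls (SD, n = 2 each). The log2 fold change was 0.92 ± 0.19 (SE; limma adjusted p = 0.00802).

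SLC33A2 is a major facilitator protein in the family of the endoplasmic reticulum's acetyl-CoA carrier, and its own substrate is not settled. It had intensities of 438 and 491 in NU7441 cells, against 279 and 302 in controls. The groups did not overlap, and the rise was 0.68 ± 0.13 on the log2 scale (SE, n = 2 each; limma adjusted p = 0.00537), the lowest adjusted p of the members. SLC49A4, a lysosomal membrane protein reported to export the vitamin B6 form pyridoxine, had 209.9 and 239 in NU7441 cells, against 138 and 145 in controls. Its rise was 0.66 ± 0.17 (limma adjusted p = 0.0170), again with no overlap.

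SLC66A3 belongs to the PQ-loop family, whose best-known members export amino acids from lysosomes, and its own substrate is not settled. Its intensity was 133 and 117 in NU7441 cells, against 74.1 and 83.0 in controls. All treated values lay above the controls, with a log2 fold change of 0.67 ± 0.23 and a limma adjusted p of 0.0468, just inside the threshold. Its relative SLC66A2, found on endosomes and the Golgi, had 185 and 169 in NU7441 cells, against 159 and 157 in controls, with no call.

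SLC35D4 is a Golgi protein reported to carry UDP-N-acetylglucosamine, a sugar donor for glycan synthesis. Its intensity was 67.5 and 73.4 in NU7441 cells, against 124 and 98.9 in controls. Both treated arrays lay below both controls, and the log2 fold change was −0.65 ± 0.22 (SE, n = 2 each; limma adjusted p = 0.0435). The 2 members of SLC35 thus moved in opposite directions, although the difference between their fold changes was not tested.

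The calls differed in how far they rested on single arrays. Without control replicate 1 no member passed (SLC33A2 was then at an adjusted p of 0.0642), and without control replicate 2 only SLC33A2 did, when 1 control array stood for its group. Over all alternatives the adjusted p ran from 2.91e-04 to 0.0642 for SLC33A2, from 1.52e-04 to 0.0938 for SLC35F6 and from 0.00156 to 0.137 for SLC49A4. SLC66A3 lost its call under 8 of 17 alternatives and SLC35D4 under 10 of 17, with log2 fold changes that stayed between 0.57 and 0.99 for SLC66A3 and between −0.81 and −0.33 for SLC35D4.

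**Figure D2:**
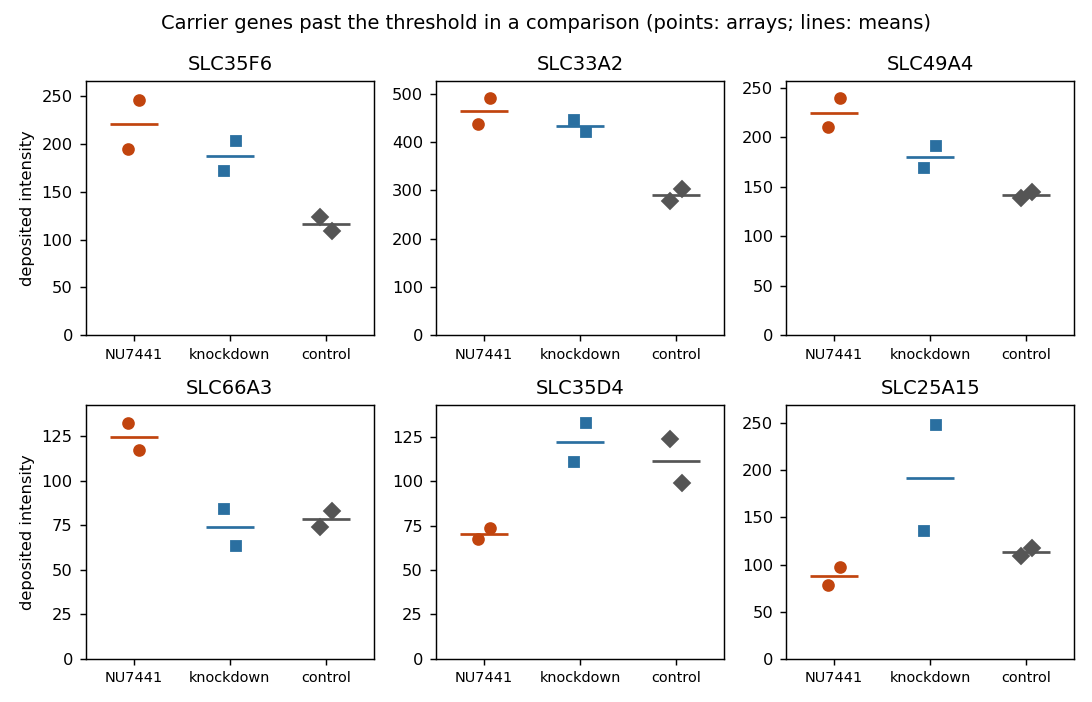
Deposited intensity (linear axis from 0) of the 6 carrier genes past the threshold in a comparison, with points for arrays and lines for the mean of 2. SLC35F6, SLC33A2, SLC49A4 and SLC66A3 are higher and SLC35D4 lower in NU7441 cells than in controls, and SLC25A15 has 135 and 248 on the knockdown arrays against 78.4 and 97.0 on the NU7441 arrays.

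Promoter sequences of 13 members were matched by gene identifier in RefSeq's GRCh38.p14 table, which had no entry for SLC33A2, SLC35D4, SLC35F6 or SLC66A2. The 250 bases before the start of transcription are shown for the members that rose together under NU7441 and were in the table, SLC49A4 (chr3:122794819-122795068, + strand) and SLC66A3 (chr2:11155217-11155466, + strand), and for SLC25A15 (chr13:40789361-40789610, + strand), the member that differed between the treatments. Each runs 5′ to 3′ toward the start site. Capitals mark matches, on either strand, to the metal response core (TGCACNC or TGCGCNC), the E-box (CACGTG) or the hypoxia core (ACGTG), which lies within the E-box.
SLC49A4: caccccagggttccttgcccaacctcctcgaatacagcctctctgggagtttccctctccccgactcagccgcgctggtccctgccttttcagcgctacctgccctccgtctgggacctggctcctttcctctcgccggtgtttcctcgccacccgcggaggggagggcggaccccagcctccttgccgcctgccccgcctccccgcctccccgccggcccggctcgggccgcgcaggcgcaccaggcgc
SLC66A3: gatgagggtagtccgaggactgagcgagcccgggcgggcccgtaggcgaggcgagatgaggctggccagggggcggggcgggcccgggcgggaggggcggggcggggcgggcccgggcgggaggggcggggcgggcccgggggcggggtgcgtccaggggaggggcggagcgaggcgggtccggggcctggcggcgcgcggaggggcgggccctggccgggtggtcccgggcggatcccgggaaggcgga
SLC25A15: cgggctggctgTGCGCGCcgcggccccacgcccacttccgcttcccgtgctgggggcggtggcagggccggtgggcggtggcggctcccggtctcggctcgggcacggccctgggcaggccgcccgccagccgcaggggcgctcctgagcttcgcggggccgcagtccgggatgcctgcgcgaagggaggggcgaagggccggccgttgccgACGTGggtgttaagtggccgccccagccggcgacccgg
The SLC49A4 and SLC66A3 windows held none of these letters, while that of SLC25A15 held 1 metal response core, starting 239 bases before the start site, and 1 hypoxia core, starting 38 bases before it. SLC66A3's window was 84.4% G and C, SLC25A15's 79.6% and SLC49A4's 72.4%.

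Over 300 bases, with 50 bases after the start included, the members' promoters had a median G and C content of 72.7% (range 58.7 to 87.0%) and a median of 36 CpG dinucleotides, against 62.7% and 22 for the 15843 protein-coding genes of the table. The metal response core was in 6 of 13 member promoters (46.2%), against 34.7% of all. The E-box was in 2 (15.4%), those of SLC60A2 and SLC61A1, against 8.88% of all, and the hypoxia core in 4 (30.8%), against 23.7%. None of these 3 motifs was matched in the promoters of SLC49A4 or SLC66A3, which says only that these letters were absent from the window.

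The comparison of knockdown with control concerned depletion of DNA-PKcs itself. No member passed limma's test (0 of 17), where 0.77% of all genes did (0.284% higher and 0.486% lower). Among protein-coding genes above the same mean the share was 0.992%, with 0.489% higher and 0.502% lower. At an unadjusted p under 0.05 there were 4 members, SLC33A2, SLC35F6, SLC25A15 and SLC61A1, all with higher values after depletion. These are 4 of 17 (23.5%), against 19.6% of all genes at that threshold (6.68% with higher values) and 21.9% of the protein-coding genes above the same mean (11.5% with higher values). When the group spreads were weighted, or the compared groups fitted alone, these same 4 passed after adjustment, as did 18.0% and 19.2% of all genes in those fits (6.0% and 6.89% higher). With median centring SLC33A2 and SLC35F6 passed, as did 2.86% of all genes. The median SD of all genes was 0.14 in knockdown, 0.21 in NU7441 and 0.09 in control arrays, and its part in the difference between these fits was not tested.

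SLC33A2 had intensities of 446 and 420.4 in knockdown cells, against 279 and 302 in controls. The groups did not overlap, with a log2 fold change of 0.58 ± 0.13 (SE, n = 2 each; limma adjusted p = 0.0701, and 9.55e-04 to 0.499 over the alternatives). SLC35F6 had 171 and 203 in knockdown cells, against 123 and 108 in controls, a log2 fold change of 0.69 ± 0.19 (SE, n = 2 each; limma adjusted p = 0.102, and 0.00301 to 0.610 over the alternatives). Both genes thus had higher values on all 4 treated arrays than on either control array, but the 2 comparisons share their controls.

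SLC25A15 exchanges ornithine for citrulline across the inner mitochondrial membrane and links the urea cycle to the mitochondrion. Its intensity was 135 and 248 in knockdown cells, against 109 and 117 in controls. The knockdown arrays lay above the controls and far from each other, with the highest SD of the knockdown group among the members (0.62 on the log2 scale). The log2 fold change was 0.69 ± 0.28 (SE, n = 2 each; limma adjusted p = 0.215), and it was 0.26 without knockdown replicate 2 and 1.13 without replicate 1.

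SLC61A1, a plasma membrane carrier for molybdate, had intensities of 290 and 248 in knockdown cells, against 184 and 215 in controls, a log2 fold change of 0.43 ± 0.18 (SE, n = 2 each; limma adjusted p = 0.225). SLC49A4 had 168 and 191 in knockdown cells, against 138 and 145 in controls, also without overlap and without a call. On the other side, SLC9D1, a predicted cation and proton antiporter, had 59.4 and 55.0 in knockdown cells, against 82.7 and 74.7 in controls (−0.46 ± 0.22, limma adjusted p = 0.278). SLC75A1, a relative of bacterial tetracycline carriers linked to organic anion export, had 30.6 and 34.0 in knockdown cells, against 37.6 and 49.8 in controls (−0.42 ± 0.33, limma adjusted p = 0.515).

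Knockdown against NU7441 compared both treatments directly. These groups also differ in siRNA transfection and in time (96 h against 24 h), which cannot be told apart from depletion against inhibition. SLC25A15 was the 1 member of 17 (5.88%) past the threshold, against 8.67% of all genes tested (5.83% higher and 2.84% lower), and was 2.10-fold higher after depletion. Among protein-coding genes above the same mean 14.2% were called, 9.4% higher and 4.8% lower. It had 135 and 248 in knockdown cells, against 78.4 and 97.0 in NU7441 cells, and the groups did not overlap. The log2 difference was 1.07 ± 0.28 (SE, n = 2 each; limma adjusted p = 0.0457). It was 0.63 (adjusted p = 0.242) without knockdown replicate 2 and 1.51 (adjusted p = 0.138) without knockdown replicate 1, and the call was lost under 9 of 17 alternatives, with adjusted p from 0.00154 to 0.242. Against controls the NU7441 arrays of SLC25A15 were lower without a call (78.4 and 97.0, against 109 and 117).

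SLC35D4, with 111 and 133 in knockdown cells against 67.5 and 73.4 in NU7441 cells, differed by 0.79 ± 0.22 (limma adjusted p = 0.0530). SLC66A3, with 84.4 and 63.4 in knockdown cells against 133 and 117 in NU7441 cells, differed by −0.77 ± 0.23 (limma adjusted p = 0.0649). SLC61A1, with 290 and 248 in knockdown cells against 161 and 199 in NU7441 cells, differed by 0.58 ± 0.18 (limma adjusted p = 0.0747). For these 3 genes the arrays of the treatments did not overlap, but none passed. SLC9D1, with 59.4 and 55.0 in knockdown cells against 83.8 and 76.1 in NU7441 cells, differed by −0.48 ± 0.22 (limma adjusted p = 0.180).

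SLC35F6 and SLC33A2, whose treated arrays all lay above the controls, did not pass the threshold between treatments. The 95% confidence interval of the knockdown minus NU7441 difference ran from −0.66 to 0.20 for SLC35F6 and from −0.39 to 0.19 for SLC33A2, which does not show that both treatments act alike.

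**Figure D3:**
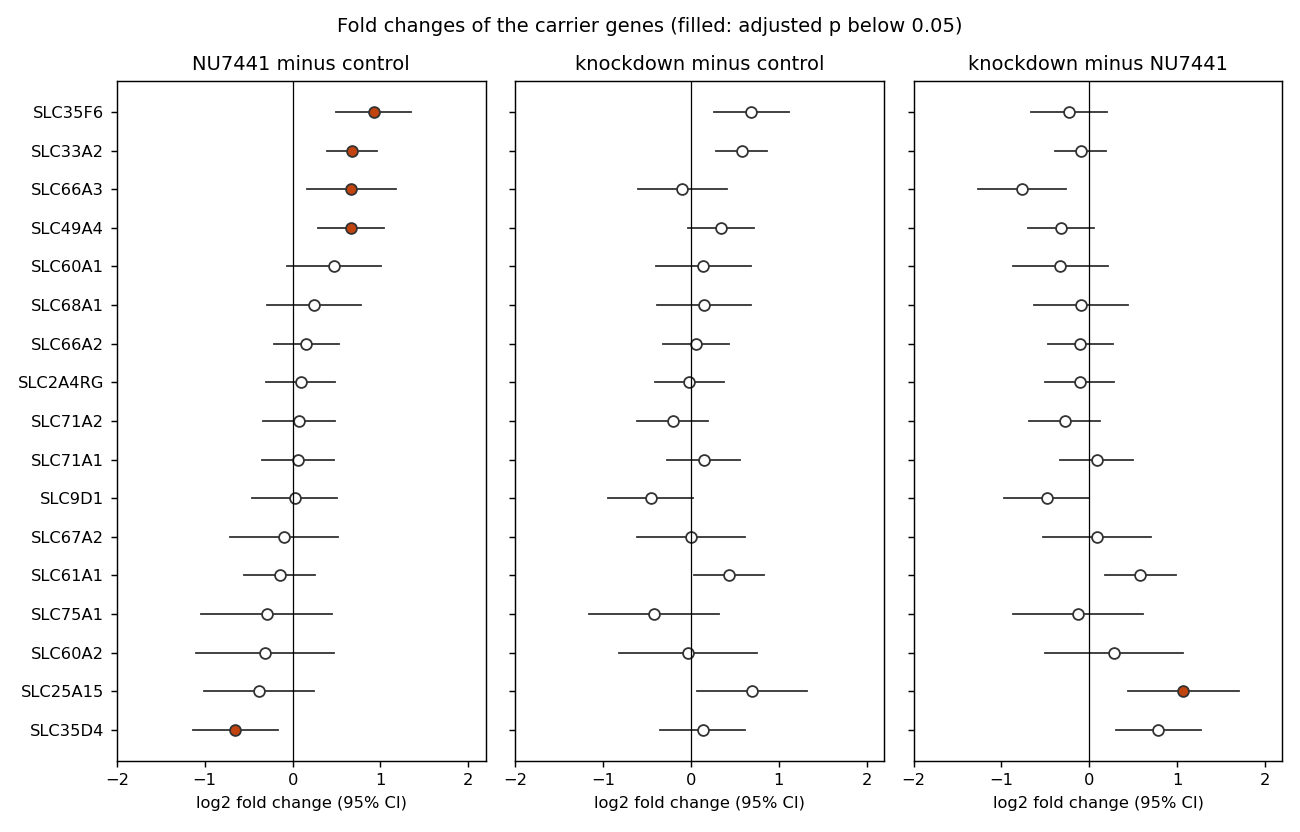
Log2 fold changes of the 17 carrier genes with 95% confidence intervals from limma, in NU7441 minus control, knockdown minus control and knockdown minus NU7441, ordered by the first. Filled points passed an adjusted p of 0.05: 5 genes in the first panel, 0 in the second and SLC25A15 in the third.

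Counting arrays instead of tests, both NU7441 arrays lay above both controls for 7 of 17 members (41.2%) and below both for 2 (11.8%), against 22.7% and 47.3% of all genes and 34.5% and 41.2% of the protein-coding genes above the same mean. Both knockdown arrays lay above both controls for 6 members (35.3%) and below for 3 (17.6%), against 23.4% and 38.2% of all genes and 34.8% and 33.0% of the protein-coding ones. Both knockdown arrays lay above both NU7441 arrays for 3 members (17.6%) and below for 5 (29.4%), against 32.9% and 19.6% of all genes and 35.6% and 26.1% of the protein-coding ones. The median log2 fold change of the members was 0.07 for NU7441 and 0.13 for knockdown against control. Over all genes the same medians were −0.23 and −0.09, and over protein-coding genes above the same mean −0.12 and 0.01. The members' median for NU7441 was 0.17 after quantile normalization and 0.39 after median centring, where the median of all genes was 0.01 and 0.08.

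**Figure D4:**
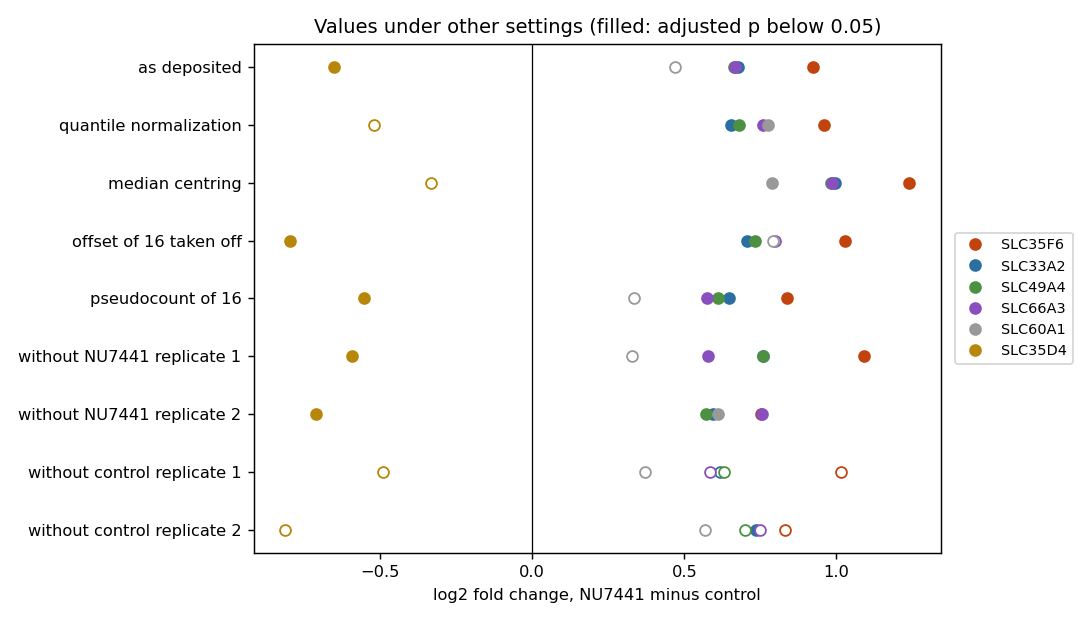
Log2 fold change, NU7441 minus control, of the 5 called members and SLC60A1 under the values as deposited and 8 other settings, filled where the adjusted p was below 0.05. All 6 genes keep their direction, and in the bottom rows, where 1 control array is left, only SLC33A2 without control replicate 2 is filled.

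The remaining members showed no call in any comparison. SLC60A1, a major facilitator protein of unsettled substrate, had intensities of 51.7 and 42.4 in NU7441 cells, 38.8 and 35.8 in knockdown cells, and 31.6 and 36.2 in controls. Both NU7441 arrays lay above the controls, with a log2 fold change of 0.47 ± 0.24 (SE, n = 2 each; limma adjusted p = 0.155, and 0.0349 to 0.549 over the alternatives). Its relative SLC60A2, which carries glucose with sodium in rat kidney, had 38.7 and 82.3 in NU7441 cells, 57.9 and 81.7 in knockdown cells, and 67.7 and 72.8 in controls. The NU7441 arrays of SLC60A2 spanned those of both other groups, and their SD of 0.77 on the log2 scale was the highest of any member in any group.

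SLC71A1, first described in mouse hippocampus, and its relative SLC71A2 are carriers of unsettled substrate. SLC71A1 had 175 and 216 in NU7441 cells, 185 and 228 in knockdown cells, and 179 and 193 in controls, with all groups overlapping. SLC71A2 had 138 and 147 in NU7441 cells, 125 and 110.3 in knockdown cells, and 137 and 134 in controls, so that the knockdown arrays lay below and the NU7441 arrays above both controls, with no call.

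SLC68A1 had 106 and 169 in NU7441 cells, 127.8 and 123.5 in knockdown cells, and 108 and 119 in controls. SLC67A2 had 44.4 and 27.5 in NU7441 cells, 37.6 and 36.9 in knockdown cells, and 38.2 and 36.5 in controls. For both of these orphan carriers the 2 NU7441 arrays lay on either side of the knockdown arrays. The same held for SLC75A1, with 49.4 and 25.2 in NU7441 cells.

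SLC2A4RG, the DNA-binding regulator, had 216 and 184 in NU7441 cells, 179 and 191 in knockdown cells, and 171 and 204 in controls. All 3 groups overlapped. SLC66A2 had 158 and 173 in knockdown cells beside the values given above, and SLC9D1 had 83.8 and 76.1 in NU7441 cells, overlapping its controls. Taking every member whose log2 fold change was under 0.4 in size, there were 11 against control under NU7441, with adjusted p of at least 0.316, and 11 after knockdown, with adjusted p of at least 0.297. Their 95% confidence intervals reached from −1.10 to 0.78 under NU7441 and from −0.82 to 0.76 after knockdown, so differences of that size cannot be told from none with 2 arrays a group.

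At the threshold on the mean, SLC67A2 (5.19) and SLC75A1 (5.20) lay just inside, and SLC49A3 (4.94) and SLC51B (4.74) just outside. The 5 genes left out were SLC25A2, SLC49A3, SLC51A, SLC51B and SLC66A1. SLC49A3, a relative of SLC49A4, had intensities of 16 and 23.8 in NU7441 cells, 40.6 and 33.5 in knockdown cells, and 37.5 and 43.2 in controls. SLC66A1, the lysosomal exporter of basic amino acids, had 16.8 and 31.3 in NU7441 cells, 22.0 and 32.1 in knockdown cells, and 28.2 and 30.1 in controls. SLC51A and SLC51B, whose products together form a bile acid and steroid exporter, lay between 16 and 36.6 on every array. SLC49A3 passed limma's test under NU7441 (−1.04 ± 0.26, adjusted p = 0.0153), but with 1 array at the floor the size of its fall is not settled. SLC25A2, an ornithine carrier related to SLC25A15, had 24.1 and 31.4 in knockdown cells, against 16.6 and 17.3 in NU7441 cells (0.70 ± 0.18, limma adjusted p = 0.0468). Its controls, at 23.3 and 24.3, overlapped the knockdown arrays (0.21 ± 0.18 for knockdown against control, limma adjusted p = 0.569). Both NU7441 values lay near the floor of 16, so the size of the difference between treatments is not settled.

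Genes of pathways that solute carriers in general serve were counted on 4 lists. No SLC30, SLC39 or citrate carrier was among the named probesets, and the only SLC2 member, SLC2A4RG, is not a carrier. The metal, citrate and glucose lists are thus not pathways of the members, and a link to the members was not tested. Of 12 measured genes of nucleotide sugar supply and the Golgi, which provide and use the substrates of SLC35 carriers, 2 were higher and 3 lower under NU7441 (33.2% of all genes were called). UXS1, which makes UDP-xylose (0.61 ± 0.18, limma adjusted p = 0.0315), and PAPSS1, which makes the sulfate donor (0.48 ± 0.16, limma adjusted p = 0.0492), rose. UGP2 (−1.33 ± 0.29), UGDH (−0.88 ± 0.15) and NANS (−0.63 ± 0.19), which make UDP-glucose, UDP-glucuronate and sialic acid, fell. After knockdown 0 of the 12 passed (0.77% of all genes), with 5 at an unadjusted p under 0.05 in limma (19.6% of all genes). These 5, GFPT1, CMAS, PAPSS1, GFUS and UAP1, all had higher values after knockdown. At that threshold 6.68% of all genes had higher values, as did 11.5% of the protein-coding genes with mean log2 above 5. Of the 12, 2 (UGP2 and UGDH) were higher after knockdown than under NU7441, where 5.83% of all genes were. The list's median log2 fold change was 0.12 under NU7441 and 0.23 after knockdown, against −0.23 and −0.09 over all genes. Over protein-coding genes with mean log2 above 5 these medians were −0.12 and 0.01.

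Of 6 measured genes of mitochondrial pyruvate and citrate handling, 2 rose and 2 fell under NU7441, where 10.8% of all genes rose and 22.4% fell. The 2 subunits of the mitochondrial pyruvate carrier parted, MPC2 at 0.37 ± 0.09 (limma adjusted p = 0.0159) and MPC1 at −0.98 ± 0.25 (limma adjusted p = 0.0162). ACLY, which splits citrate in the cytosol, rose by 0.59 ± 0.13 and PDHA1, of pyruvate dehydrogenase, fell by 0.76 on the log2 scale. After knockdown 0 of the 6 passed, also at an unadjusted p under 0.05 in limma, where 0.77% and 19.6% of all genes did. MPC1 (1.11 ± 0.25, limma adjusted p = 0.0276) and PDHA1 (0.67 ± 0.14, limma adjusted p = 0.0203) were higher after knockdown than under NU7441. In that comparison 5.83% of all genes were higher. The list's median was −0.28 under NU7441 and 0.02 after knockdown. Of 6 measured genes of glucose use, HK1 rose (0.46 ± 0.15) and LDHB fell (−0.76 ± 0.13) under NU7441, beside the same 10.8% and 22.4% of all genes. After knockdown 0 of these 6 passed (0.77% of all genes), with 1 at an unadjusted p under 0.05 in limma (19.6% of all genes). Their medians were 0.09 and 0.05.

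Of 13 measured genes of zinc and other metal handling, 3 rose after knockdown and 0 fell, where 0.284% of all genes rose and 0.486% fell. The 3 are metallothioneins, metal-binding proteins that respond to zinc. Of the 9 measured genes of this family, both knockdown arrays lay above both controls for 5 and below for 3, and 1 overlapped. Over all genes 23.4% lay above and 38.2% below. The 3 below, MT1B, MT1E and MT1M, were dim, with mean log2 of 4.33, 4.43 and 4.58, as was MT1G (4.68) among those above. MT1M had 19.6 and 24.2 in knockdown cells, against 37.0 and 34.9 in controls, with no call (−0.72 ± 0.19, limma adjusted p = 0.0904). MT1F had 607 and 569 in knockdown cells, against 82.8 and 97.8 in controls, and MT1X had 1031 and 1135 in knockdown cells, against 624 and 736 in controls. MT2A had 1392 and 1367 in knockdown cells, against 839.8 and 881 in controls (0.68 ± 0.08, limma adjusted p = 0.0187). Probes of this family may read several of its copies. Under NU7441 2 genes of the list rose and 3 fell, where 10.8% of all genes rose and 22.4% fell. MT3 and CCS rose. MT1X fell, to 421 and 376 in NU7441 cells, against 624 and 736 in controls (−0.77 ± 0.12, limma adjusted p = 0.00242). MT1M fell to 17.1 and 18.0, near the floor of 16 (−1.03 ± 0.19, limma adjusted p = 0.00460). TMEM163, a zinc exporter outside the SLC names, fell to 19.3 and 23.0 in NU7441 cells, against 62.8 and 70.6 in controls (−1.66 ± 0.24, limma adjusted p = 0.00182). Its NU7441 values lay near the floor of 16, so the size of its fall is not settled. Between knockdown and NU7441 5 of the 13 were higher after knockdown, where 5.83% of all genes were. TMEM163 and the metallothioneins MT1F, MT1X and MT2A were among these 5. The list's median was −0.19 under NU7441 and 0.24 after knockdown.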

How the data were processed

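The deposited values are linear intensities, 1 per probeset and array (44629 probesets, 6 arrays); how the authors summarised, background-corrected or normalized them, and with which genome build, is not stated by the labels or headers and so not given in the sources used here. All values lay above 16. They were turned to log2 with no further scaling. Names came from the platform's probe table, with biotypes from RefSeq's GRCh38.p14 gene table: 15835 probesets had 1 symbol and 28794 were unnamed here, and the brightest probeset stood for each of 651 genes with several, giving 14812 genes.

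All genes were fitted with limma 3.58.1 (R 4.3.3) in 1 model over the 6 arrays, with 3 residual degrees of freedom, a mean-variance trend, two-sided tests and Benjamini-Hochberg adjustment over all genes, at 0.05. Values after ± are limma's standard errors of log2 fold changes unless marked SD. Replicates are called biological in the labels. The procedure was tested on simulated data.

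The members, lists and motifs were chosen with earlier results of these data known. All members were to be named in SLC2, SLC30 and SLC39, with the extremes of other families, and since so few were measured all 17 are. Promoters had been planned for zinc and citrate carriers; none was among the named probesets, so those of called members are shown. Alternatives covered scaling, offset, pseudocount, dim genes, trend, weights, groups fitted, replicate block, probesets, the threshold on the mean and each array left out. Same-numbered replicates did not deviate together (correlations from −0.07 to −0.01 across genes). These values cannot settle whether same-numbered cultures were run as pairs.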

Additional observations from a re-analysis of the deposited data

Results flagged for a closer look

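SLC25A15, the mitochondrial ornithine carrier, was the member whose response differed between the treatments by a direct test, with a log2 difference of 1.07 for knockdown against NU7441 (limma adjusted p = 0.0457). Both NU7441 arrays lay below both controls and both knockdown arrays above them. The knockdown arrays lay far apart, at 135 and 248. Among other alternatives, the call was lost with median centring, without the mean-variance trend and with the compared groups alone. SLC71A2 also had its knockdown and NU7441 arrays on opposite sides of the controls, but the difference of −0.28 did not pass (limma adjusted p = 0.339), and 1 NU7441 array, at 137.7, lay next to a control at 137.1.

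A noncoding transcript outside the members, SLC60A1-AS1, named as antisense to SLC60A1, was higher under NU7441 by 1.07 ± 0.21 on the log2 scale (limma adjusted p = 0.00655). It had 42.3 and 49.7 in NU7441 cells, 23.1 and 25.8 in knockdown cells, and 22.1 and 21.8 in controls, while SLC60A1 itself had no call. Whether its probes also read SLC60A1 transcripts was not tested.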

How the results depend on the processing

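The count of 5 members called under NU7441 became 3 with the compared groups alone, with array weights by group and with the replicate block. It lay between 3 and 6 over the alternatives that left out no single array and between 0 and 7 with an array left out. After knockdown the count of 0 became 2 with median centring, 4 with the compared groups alone and 4 with array weights, and 3 with quantile normalization and array weights together, a combination chosen after seeing the data; leaving out an array gave 0 to 4. For knockdown against NU7441 the count of 1 became 2 with quantile normalization or no threshold on the mean and 3 with dim genes left out. It became 0 with the offset of 16 taken off, without the mean-variance trend, in a fit of the 2 compared groups, and under the combination chosen after seeing the data. Leaving out an array gave 0 to 6. The replicate block left that count at 1 and the knockdown count at 0. Where leaving out an array leaves 1 in its group, that array is assumed to vary like the others. Over all genes, the 4917 calls under NU7441 became 1051 without control replicate 1, 868 without control replicate 2 and 7845 without NU7441 replicate 2. The 114 after knockdown ranged from 1 (without knockdown replicate 2) to 2884 (without NU7441 replicate 1), with 2843 for the compared groups alone. The 1284 between treatments ranged from 0 (without knockdown replicate 2) to 5101 (without NU7441 replicate 2). The cause of these moves was not tested. Over 17 alternatives the sign changed at least once for 8 members under NU7441, 7 after knockdown and 6 between treatments, none of them called. Genes near the floor of 16 have understated fold changes if the floor is an added offset, and 2 arrays a group limit every call.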

Other observations

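Genes that still carry an MFSD symbol are close relatives of 9 members and were looked at after their values were seen. Of 6 measured, 2 rose under NU7441 and none fell, where 33.2% of all genes were called, and 0 passed after knockdown, with 2 at an unadjusted p under 0.05 in limma (19.6% of all genes). MFSD1, a lysosomal carrier of dipeptides, had 408 and 305 in NU7441 cells, 231 and 253 in knockdown cells, and 164 and 167 in controls. MFSD11, of unsettled substrate, had 119 and 107 in NU7441 cells, 92.6 and 105 in knockdown cells, and 62.6 and 61.7 in controls. For both genes all 4 treated arrays lay above both controls. For MFSD8 and MFSD6L all 4 lay below both, with no call. MFSD8, a lysosomal membrane protein, had 29.6 and 43.3 in NU7441 cells, 47.2 and 35.0 in knockdown cells, and 59.1 and 64.3 in controls, and MFSD6L had 17.8 and 23.8 in NU7441 cells, 27.1 and 18.1 in knockdown cells, and 27.7 and 28.9 in controls.

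Of 15 transcripts named after a solute carrier that are not protein-coding, 1 rose and 3 fell under NU7441, where 10.8% of all genes rose and 22.4% fell. After knockdown 0 passed, where 0.77% of all genes did, with 1 at an unadjusted p under 0.05 in limma (19.6% of all genes). Of the 15, 9 had a mean log2 of 5 or less.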
